A study of Mus musculus with 2 samples.

Results

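The region examined is the major cluster of histone genes on mouse chromosome 13, as read by chromatin immunoprecipitation and sequencing (ChIP-seq) of HA-tagged Dido3. It was taken as 2 blocks of the mm9 genome, from 21.7 to 22.2 Mb and from 23.5 to 23.9 Mb, and its members are the called peaks whose start lies in a block. That these bounds hold the histone genes was not checked, since no mm9 annotation was used here, so a block here means only that interval. The members were thus chosen by the position of called peaks, and the blocks were picked with earlier results of this peak list known. There were 8 such peaks, 3 in the first block and 5 in the second, out of 128 on chromosome 13 and 2888 in the whole list. How many peaks the blocks hold is therefore a description, and no test was made of it.

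The cells were C57BL/6 mouse embryonic stem cells of the genotype Dido3deltaCT+HADido3, which carry an altered Dido3 and were given HA-Dido3 back, kept self-renewing with leukemia inhibitory factor (LIF). The ChIP library was made with a polyclonal antibody against HA, and the input library came from cells of the same strain and genotype without antibody. There was 1 library of each kind, so no value has a replicate and the intervals given cover counting error only. Both libraries carried the tagged protein, and no ChIP of untagged cells was used here, so tagged-protein binding and non-specific precipitation cannot be told apart. How the cells were reconstituted, and whether they came from 1 clone, is not given in the sources used here.

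Replication-dependent histone genes encode the core histones H2A, H2B, H3 and H4, around which DNA is wrapped, and the linker histone H1, which binds between nucleosomes. They are short, have no introns, are transcribed mainly in S phase, and their mRNAs end in a stem-loop in place of a poly(A) tail. Many near-identical copies sit side by side, and in the nucleus they gather in the histone locus body. Dido3 is the longest protein of the Dido1 gene and carries a PHD finger, a domain that binds histone H3 methylated at lysine 4.

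The gene content of the cluster was read from the RefSeq table of GRCm38, a later build than that of the peaks, and was used for names and neighbours only. A run here has at most 5 protein-coding genes of another kind between neighbouring histone genes. Apart from the pseudogene H2af-ps2, the histone genes lay in GRCm38 in 2 runs that held 54 protein-coding histone genes. The first run, from H2bc13 to H2bc11, held 23 of them, with 1 H1, 7 H2A, 8 H2B, 2 H3 and 5 H4 genes. Within it stood the protein-coding genes Zfp184, Pom121l2 and Prss16 and 31 tRNA genes. The second run, from H4c8 to H2ac1, held 31 histone genes, with 5 H1, 6 H2A, 7 H2B, 7 H3 and 6 H4 genes. It also included Hfe, Trim38 and 4 genes of the Slc17a transporter family. Between the runs lay 41 protein-coding genes, 36 of them Vmn1r vomeronasal receptor genes and the others Gm11295, Zfp322a, Abt1, Btn1a1 and Btn2a2, together with 46 tRNA genes. Which of these genes a given peak lies in or near was not analysed here, since positions were not converted between builds.

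Promoters of histone genes of these GRCm38 runs are shown because the blocks were drawn for these genes, and because copies of them repeat. Whether each lies inside a block was not analysed here. Of the 54 genes, 51 had a promoter in the RefSeq table. Each sequence is the last 110 bases before the annotated gene start in GRCm38, on the strand of the gene, for the first gene of its family along the chromosome with a TATA motif there and, except for H4, a CCAAT motif. Capitals mark CCAAT on either strand (ATTGG on the other) and TATAAA or TATATA on the strand of the gene, where matches may overlap. No peak was joined to any of them.
H1f5 (H1): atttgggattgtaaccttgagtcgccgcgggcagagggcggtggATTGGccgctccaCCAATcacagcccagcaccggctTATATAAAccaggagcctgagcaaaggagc
H2ac13 (H2A): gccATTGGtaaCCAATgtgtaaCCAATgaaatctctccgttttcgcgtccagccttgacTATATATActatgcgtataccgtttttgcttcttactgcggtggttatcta
H2bc14 (H2B): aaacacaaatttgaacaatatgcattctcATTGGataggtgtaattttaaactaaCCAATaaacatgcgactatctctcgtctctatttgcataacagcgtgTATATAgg
H3c10 (H3): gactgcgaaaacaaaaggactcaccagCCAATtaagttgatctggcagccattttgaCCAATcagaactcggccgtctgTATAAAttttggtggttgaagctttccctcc
H4c12 (H4): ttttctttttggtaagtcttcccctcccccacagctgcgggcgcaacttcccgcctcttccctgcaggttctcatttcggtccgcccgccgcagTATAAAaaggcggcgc
H2bc23 and H4bc24 (identical in both): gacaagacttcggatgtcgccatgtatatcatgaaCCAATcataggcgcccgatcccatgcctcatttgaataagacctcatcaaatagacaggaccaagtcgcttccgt

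The last of these was printed because its 110 bases are identical before both genes. H4bc24 is listed with the older symbol Hist1h2br and belongs to the H2B family. In the 250 bases before the start, CCAAT was found in 44 of 52 histone windows (84.6%), against 33.8% of the 32851 windows of all genes, and TATAAA or TATATA in 27 of 52 (51.9%), against 11.5%. A match says only that these letters are present. The 52 windows come from 51 genes, and some overlap or repeat, so they are not separate observations. As a measure of copying, each window was read as words of 36 bases. In 6 of the 52 histone windows (11.5%), over 50% of the words also occurred before another gene at a place that did not overlap, against 4.06% of all windows. These 6 were H2bc23 and H4bc24 (100%), H4c17 and H4c18 (99.5%), H2ac24 (92.1%) and H2ac23 (63.7%). Of the 52 windows, 20 (38.5%) overlapped that of another histone gene. The family and direction of the genes with overlapping windows were not analysed here. Neither read length nor how reads with several matches were treated is given in the sources used here. The part of repeated sequence in the number of called peaks was not tested.

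The first block held 3 peaks in 500 kb. The first of them, chr13:21924735-21925001, was 267 bp long and held 10 ChIP tags. The next, chr13:22128324-22128619, was 296 bp long and also held 10 tags. The third, chr13:22131964-22132625, was 662 bp long and held 28 tags. The first peak began 225 kb from the start of the block, and the other two formed a close pair, separated by 3344 bp, in its later part. Against this pair, the lone peak lay 203 kb from its nearest neighbour.

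These peaks differed in how far they stood above background. All scores, folds and false discovery rates here are the authors' values for each peak. The score is the p-value of each peak as its -log10 multiplied by 10, so higher means stronger, and the lowest score in the list was 50.05. The peak at chr13:22131964-22132625 had a score of 149.8, a fold enrichment of 19.43 over the expected background and a false discovery rate of 1.3%. The lone peak had a score of 57.08, a fold of 11.74 and a rate of 7.74%. The weaker one of the pair had a score of 53.18, a fold of 9.78 and a rate of 10.93%. In the whole list they ranked 616, 2192 and 2506 by score, so 1 peak of this block stood in the upper part of the list and the other two in the lower part.

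The second block held 5 peaks in 400 kb, at 3 places. At the first place, chr13:23668066-23668510 held 20 tags over 445 bp, and 5496 bp further on chr13:23674007-23674299 held 10 tags over 293 bp. At the second place, chr13:23784075-23784736 held 35 tags over 662 bp, and only 100 bp after it chr13:23784837-23785123 held 12 tags over 287 bp. Both of these places thus paired a longer peak with a shorter one that followed it. At the third place, chr13:23836228-23836892 stood alone with 25 tags over 665 bp. The places were separated by 110 kb and 51.1 kb.

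The longer peaks of the second block were also its stronger ones, with length and score both read from the same reads. Its highest score, 146.24, belonged to the peak at chr13:23784075-23784736, at a fold of 13.47 and a false discovery rate of 1.26%. The peak at chr13:23836228-23836892 had a score of 132.3, a fold of 17.61 and a rate of 1.1%. That at chr13:23668066-23668510 had a score of 121.1, the same fold of 17.61 and a rate of 0.98%. The short peaks scored 58.65 at chr13:23784837-23785123 and 53.56 at chr13:23674007-23674299, with rates of 7% and 10.88% and folds of 10.15 and 11.74. The ranks by score in the whole list were 634, 728 and 813 for the longer peaks and 2071 and 2465 for the shorter ones.

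Over both blocks the 8 peaks fell apart by score, with 4 between 121.1 and 149.8 and 4 between 53.18 and 58.65. Scores strictly between 58.65 and 121.1, where no member lay, were held by 43.5% of all listed peaks and by 48.3% of the other peaks of chromosome 13. The 4 high-scoring members were 445 to 665 bp long with 20 to 35 tags, and the 4 low-scoring ones were 267 to 296 bp long with 10 to 12 tags. Neither the lengths nor the tags of these sets overlapped, but the sets were cut at a gap seen in the scores. On other chromosomes, lengths and tags of high-scoring and low-scoring peaks did overlap. There, a peak of 218 bp with 24 tags scored 230.31, and a peak of 545 bp with 28 tags scored 51.92. Score, length and tags are all read from the same reads. The same split was not made for the other listed peaks, so it is not given as particular to the members. Of the low-scoring members, 3 lay within 10 kb of a high-scoring one, at 100, 3344 and 5496 bp. How often this holds for low-scoring peaks elsewhere was not analysed here. A peak of any score within 10 kb was found for 6 of 8 members, 53.3% of the rest of chromosome 13 and 58.0% of the list. The values of the members were set side by side after they were seen.

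**Figure D1:**
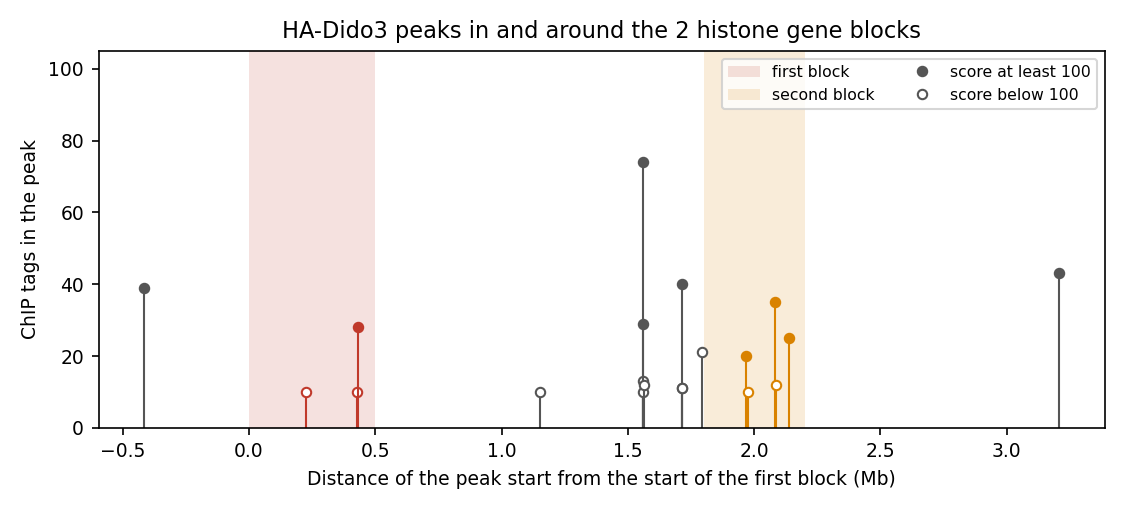
Tags of each peak (vertical axis, count) against the distance of its start from the start of the first block (horizontal axis, Mb), with the blocks shaded, filled points for scores of at least 100 and open points for lower ones. The 8 block peaks hold 10 to 35 tags, and the most tags, 74, stand in a peak between the blocks.

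Peaks were denser in the blocks than over the rest of chromosome 13. The first block held 6 peaks per Mb (95% exact Poisson interval 1.24 to 17.5) and the second 12.5 per Mb (4.06 to 29.2). The other 120 peaks stood at 1.05 per Mb (0.867 to 1.25) over the span from the first to the last peak of the chromosome, without the blocks. The density was 5.73 times that of the rest in the first block (interval 1.17 to 17.2), 11.9 times in the second (3.81 to 28.7) and 8.5 times in both together (3.59 to 17.3). The blocks held 6.25% of the peaks of the chromosome (exact Clopper-Pearson interval 2.74% to 11.9%) and 3.42% of the 4385 tags in them. These intervals treat neighbouring peaks as independent. With peaks up to 10 kb apart counted as 1 region, the blocks held 5 of 83 regions.

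The stretch between the blocks was about as dense as the blocks themselves. It held 10 peaks in 1.3 Mb, or 7.69 per Mb (interval 3.69 to 14.1), against 8.89 per Mb in the blocks (3.84 to 17.5). The ratio of blocks to stretch was 1.16, with an interval of 0.396 to 3.25 that reaches well to either side of equal density. Peaks covered 3.97 bp per kb of the blocks and 3.98 bp per kb of the stretch. The second block was 1.62 times as dense as the stretch (interval 0.436 to 5.22) and the first 0.78 times (0.138 to 3.03). In the flanks of equal width, 1 peak stood before the first block and 0 after the second, where the upper bound of the Poisson interval was 9.22 per Mb.

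The highest scores of the neighbourhood also lay between the blocks. The peak at chr13:23259889-23261394 held 74 tags over 1506 bp with a score of 420.21, and stood in a group of 5 peaks over 7.97 kb with 138 tags. A group of 3 peaks with 62 tags followed, led by chr13:23412925-23413697 with 40 tags and a score of 245.58. Both scores were above the highest of the blocks, 149.8. So were those of the last peak before the first block, 183.28, and of the first peak after the second, 241.21 with 43 tags. Of the 14 peaks from 23 to 24 Mb, 5 lay in the second block and 9 before it. 

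How near the closest peaks stood to the bounds differed between the blocks. Outside the first block, the nearest peaks were chr13:21286522-21287476 with 39 tags, 413 kb before its bound, and chr13:22853372-22853604 with 10 tags, 653 kb after it. The last peak inside it began 68.0 kb from its end. The peak at chr13:23492806-23493209, with 21 tags, a score of 70.91 and a fold of 8.16, began only 7.19 kb before the second block and was left out by the rule. The first peak inside that block began 168 kb from its bound and the last 63.8 kb before its end. The next peak on the chromosome began 1.01 Mb past that end. With each bound moved outwards by 100 kb the second block held 9 peaks in place of 5, and the first still held 3. The density also depends on the width: measured only from its first to its last peak, the first block had 13.9 times the density of the rest and the second 28.4 times.

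Windows of the same width, laid end to end along chromosome 13 so that the block was 1 of them, showed where the blocks stood. Of 232 windows of 500 kb, 180 held no peak, 14 held at least the 3 of the first block and 11 held more, with 11 peaks as the most. Of 290 windows of 400 kb, 233 held no peak, 6 held at least the 5 of the second block and 4 held more, with 9 as the most. Over all chromosomes, 7.59% of 5020 windows of 500 kb held at least 3 peaks, and 2.07% of 6266 windows of 400 kb held at least 5. The blocks were among the fuller windows and were not the fullest on the chromosome.

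**Figure D2:**
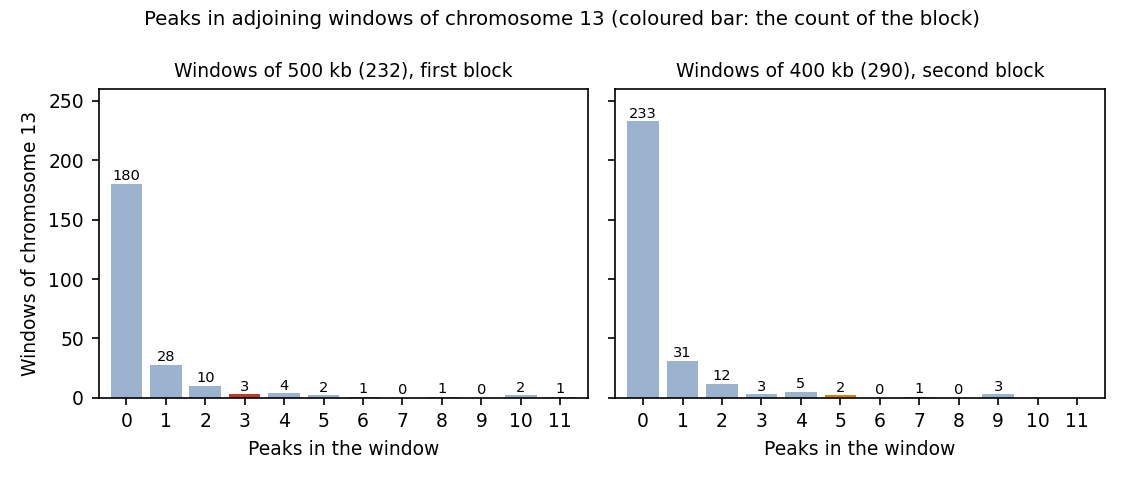
Number of windows of chromosome 13 (vertical axis) by the number of peaks they hold (horizontal axis), for 232 windows of 500 kb on the left and 290 windows of 400 kb on the right, with the bar at the count of each block coloured. Most windows hold no peak, and 11 windows on the left and 4 on the right hold more than the block.

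Within a block the spacing was uneven. Gaps between neighbouring peaks of the same block ran from 100 bp to 203 kb with a median of 28.3 kb (n = 6 gaps, whose 95% interval is their whole range). The 117 gaps in the rest of the chromosome had a median of 60.6 kb (95% interval 22.4 to 159.5) and a longest value of 8.99 Mb. A gap in a block cannot exceed the width of that block, so the longest values are not comparable. Of the 6 gaps, 3 were at most 10 kb, against 35.9% of those in the rest. The distance to the nearest other peak had a median of 4.42 kb for the members and 4.31 kb for the rest. Another peak within 10 kb was found for 6 of 8 members, against 53.3% of the rest of chromosome 13 and 58.0% of the whole list.

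In length and tags the members looked like other peaks of the list. Their median length was 370.5 bp (n = 8, range 267 to 665), against 441 bp in the rest of the chromosome (interval 399 to 477) and 391.5 bp in the whole list. Their median number of tags was 16 (range 10 to 35), against 18.5 in the rest (interval 15 to 21, range 9 to 882). Tags per kb of peak ran from 33.8 to 52.9 with a median of 39.7, against 40.2 in the rest. The member medians lay within the middle 50% of the peaks of the rest, which spans 332.5 to 677 bp and 12 to 34.25 tags. No member was longer than 1000 bp, but the share of other peaks above that length was not computed, so this marks no difference. The 150 tags of the 8 peaks were 0.178% of the 84288 tags in the list.

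**Figure D3:**
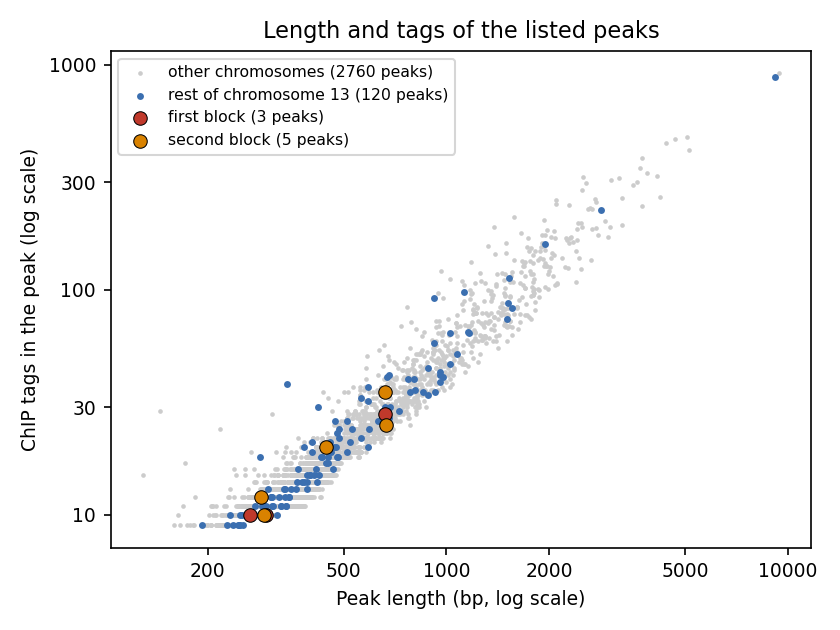
Tags in a peak (vertical axis, log scale) against its length in bp (horizontal axis, log scale) for every listed peak, with the peaks of each block and of the rest of chromosome 13 coloured. The 8 block peaks, at 267 to 665 bp and 10 to 35 tags, lie on the band formed by the other peaks. They lie away from its long upper tail, which reaches 9424 bp and 914 tags.

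In strength the members also lay within the range of the other peaks. The median score of the members was 89.9 (range 53.18 to 149.8), against 75.5 in the rest of the chromosome (interval 68.8 to 95.2) and 75.3 in the list. The direction of this difference depended on the peaks kept. Without peaks whose background was read as above the genome-wide level the medians were 57.1 in the members and 82.5 in the rest. At a score of at least 100 they were 139.3 and 193.2. With regions joined at 1 kb the direction stayed, at 121.1 in the blocks and 76.1 in the rest. Their median fold was 12.6 (range 9.78 to 19.43), against 13.7 in both. Scores of at least 100 were reached by 4 of 8 members, against 35.8% of the rest and 35.9% of the list, and the highest, 149.8, ranked 30 among the 128 peaks of the chromosome. A false discovery rate of at most 5% was listed for 4 of 8, against 69.2% and 64.6%. A length over 500 bp was found for 3 of 8, against 36.7% and 33.6%. No member reached a fold of 20, which 10.8% of the rest and 14.5% of the list did, and 0 of 8 still allows a share of up to 36.9% (exact interval). With 8 peaks, the interval of each of these shares includes the share in the rest, so no difference was detectable in either direction.

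Folds gave a view of the background at each peak. Of all listed folds, 2099 (72.7%) were whole multiples of 1.957 within 0.01, where evenly spread values would give 1.02%. Such steps arise when the caller divides a whole number of tags by 1 background for the whole genome, and folds off the steps were read as having a higher local background. Among the members, 5 lay on the steps, at multiples of 5, 6, 6, 9 and 9. The other 3 lay off the steps and were read as having a background above the genome-wide level. They were chr13:22131964-22132625 in the first block and the pair at chr13:23784075-23785123 in the second. That is 3 of 8, against 37.5% of the rest of chromosome 13 and 27.3% of the list. The 2 members with the most tags were among these 3. Of the 10 peaks between the blocks, 4 were read in the same way. The local background itself is not among the listed values.

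The highest point of each peak, the summit, lay in the later 50% of the peak by coordinate for 7 of 8 members, against 45.8% of the rest and 48.7% of the list. The exception was chr13:22128324-22128619, whose summit lay at 31.1% of its length. The other summits lay between 60.7% and 85.6%. This measure was picked after the values were seen, and the interval of the share in the members, 47.3% to 99.7%, includes the share of the list and starts just above that of the rest of chromosome 13. The interval treats the peaks as independent and was not adjusted for the choice among measures.

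**Figure D4:**
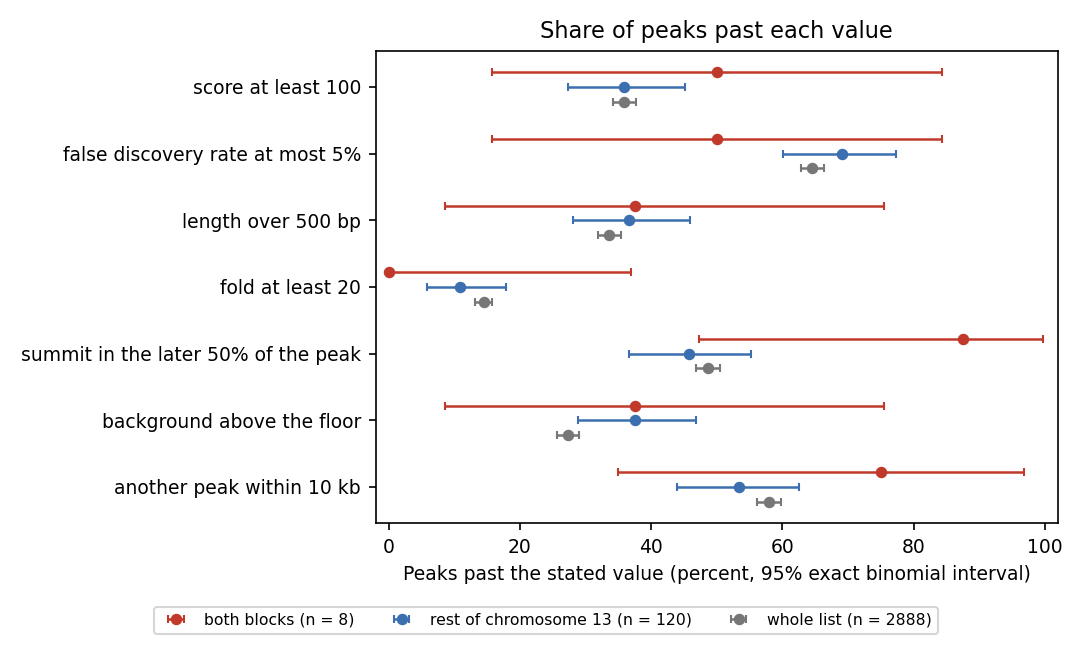
Percent of peaks past each stated value (horizontal axis) for the 8 peaks of both blocks, the 120 other peaks of chromosome 13 and the 2888 peaks of the list, with 95% exact binomial intervals as bars and the floor standing for the genome-wide background. The intervals of the block peaks are wide and include the share of the other 120 peaks for every value except the place of the summit, where the interval starts at 47.3% and that share is 45.8%.

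The blocks held 8 peaks, and the RefSeq runs hold 54 protein-coding histone genes in GRCm38. These counts come from different builds and intervals that were not matched, so no rate of peaks per gene was drawn from them. Since 20 of the 52 histone windows overlapped that of a neighbour, 1 peak could stand before more than 1 gene, and peaks were not joined to genes. The least number of tags in any listed peak was 9, and total reads per library are unknown, so a histone gene without a peak cannot be read as free of HA-Dido3.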

How the data were processed

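HA ChIP-seq was compared with input in mouse embryonic stem cells, 1 library each, through 1 table of 2888 peaks. The submitters' processing notes name Bowtie, SAMtools, MACS 1.4 and build mm9 without options. Total reads and options are otherwise not given in the sources used here. For each peak the authors deposited, per the file headers, a length, a summit offset, the whole-number count of ChIP tags, a score, a fold enrichment (a ratio to expected background) and a false discovery rate in percent. No peak was left out and no value was rescaled. Positions count from 1.

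Blocks, members and comparisons were chosen with earlier results of these data known. Peaks of 1 library are not replicates, so no test was run. Members were described beside the rest of chromosome 13, whose length was taken from the first to the last peak (115.6 Mb), and beside the whole list. Intervals are exact Poisson, Clopper-Pearson or order-statistic intervals at 95%, for counting error only. Rate ratios carry the interval of the binomial share. The step of the folds was found by a grid search. By the rule for named items, the 5 highest-scoring peaks and the longest of each block were to be given in full, and the blocks hold no more than that. Alternatives were stricter scores or rates, joined regions, other bounds and leaving out peaks read as having a higher background. The counting steps were tested on simulated data. Promoter sequences are RefSeq's for GRCm38.p6. Values were computed in Python 3.11.15 with pandas 2.3.3 and numpy 2.4.6, intervals with scipy 1.17.1, and plots with matplotlib 3.10.9. Assigning peaks to histone genes had been planned and was not done, since no mm9 annotation was used here.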

Additional observations from a re-analysis of the deposited data

How the results depend on the processing

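The blocks were drawn with the peak list known, so a density above the rest under an alternative is no sign of stability. The ratio of the first block ran from 2.76, which rests on 1 peak at a false discovery rate of at most 5%, to 13.9 from first to last peak. Peaks in the first block, the second and both numbered 1, 3 and 4 at a score of at least 100, and also 1, 3 and 4 at a false discovery rate of at most 5%. With regions joined at 10 kb the second block held 3 and both held 5. The same counts of 3 and 5 came without peaks whose background was read as above the genome-wide level. Bounds moved outwards by 100 kb gave 9 in the second block. Measured from the first to the last peak of each block, which narrows the blocks by construction, the density ratio of both rose from 8.5 to 20.4. Leaving the stretch between the blocks out of the rest, an alternative added after the data were seen and run for both blocks together, gave 9.16. In the rest of chromosome 13, a score of at least 100 raised the median gap to 490.1 kb, the median length to 783 bp, tags to 39, fold to 17.6 and score to 193.2, as that choice keeps stronger and fewer peaks. In the blocks it raised them likewise, to 83.5 kb, 662 bp, 26.5 tags, fold 17.6 and score 139.3, within the wide intervals of 8 peaks. The median score of the members was above that of the rest with all peaks and with regions joined at 1 kb (121.1 against 76.1). It was below that of the rest at a score of at least 100 and without peaks read as having a higher background (57.1 against 82.5). The median length was 391.5 bp with all other listed peaks in place of the rest. Regions joined at 1 kb had a median of 26 tags in the rest of chromosome 13 and 20 in the blocks. The other 66 of 85 alternative values stayed within 1.5 times the count or within the interval of the value. No paired analysis was possible because each group had a single library. With 8 peaks, medians and shares are imprecise, and unknown sequencing depth limits what weak or absent peaks can show.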
